A study of Homo sapiens with 6 samples.

Results

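The WNT and beta-catenin pathway genes described here are 61 protein-coding genes, chosen by gene symbol from the 34834 genes that had a quantified transcript in SKOV3 cells. They comprise 19 WNT ligands, the ligand secretion factors PORCN and WLS, the 10 frizzled receptors, the 5 co-receptors LRP5, LRP6, ROR1, ROR2 and RYK, 8 secreted antagonists of the SFRP and DKK families, the receptor ubiquitin ligases RNF43 and ZNRF3, DVL1 to DVL3, the 7 components of the beta-catenin destruction complex, and the 5 nuclear effectors CTNNB1, TCF7, TCF7L1, TCF7L2 and LEF1. All 61 had a quantified transcript, and 42 of them had counts in all 6 samples.

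SKOV3 is a human epithelial ovarian cancer cell line. In the DNM3OS knockdown group, 3 samples of these cells were transfected with 50 nM of a pool of 4 siRNAs directed at the long non-coding RNA DNM3OS. In the non-targeting control group, 3 samples received 50 nM of a pool of non-targeting siRNA. The labels give no other genotype for either group. Both were transfected with a cationic lipid reagent, and RNA was profiled 48 h later. The comparison is thus between 2 transfected states of the same line, and it models a transient siRNA knockdown. It asks which genes respond to knockdown of DNM3OS, a transcript that the study links to epithelial-to-mesenchymal transition.

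WNT proteins are lipid-modified secreted ligands that bind frizzled receptors together with LRP5 or LRP6. Without a ligand, a destruction complex of AXIN, APC, GSK3 and casein kinase 1 marks beta-catenin, the product of CTNNB1, for degradation, and with a ligand, dishevelled proteins disable this complex and beta-catenin enters the nucleus to act with TCF and LEF factors. In ovarian and other epithelia the pathway is known for its part in cell fate, and beta-catenin also links cadherins to the actin cytoskeleton at cell junctions.

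The 6 libraries held between 1610937 and 1995888 estimated counts, of which 1523046 to 1868325 lay on annotated genes. On the TMM scale used for all CPM (counts scaled to library size) here, 3 counts in a library corresponded to between 1.40 and 2.10 CPM. Of the annotated DNM3OS transcripts, 0 of 6 were among the quantified transcripts, so the knockdown could not be checked in these files. The study itself measured the knockdown by qRT-PCR in SKOV3 cells. The libraries were stranded, the strand setting of the quantification is not given in the sources used here, ribosomal protein genes held at most 0.543% of the counts on genes, and between 52.8% and 61.4% of a library's counts lay on the 18.0% of transcripts that share exon bases with a gene on the opposite strand. PLLP alone held between 15.7% and 22.2% of a library's counts on genes. Which strand was counted was not tested, and a member's counts may therefore not be sense RNA alone. For the same reason, a member at 0 counts may not have its sense RNA limited by that 0. Of 11 markers of SKOV3 cells, 7 had counts in all 6 libraries, MUC1 was at 0 in each, and their summed level was 978, 1742 and 2285 CPM in the knockdown and 1754, 1139 and 1729 CPM in the controls. KRT8 held most of this sum, with 783, 1310 and 1801 CPM in the knockdown and 1006, 782 and 1177 CPM in the controls. WT1, MSLN and MUC16 had at most 4 counts in a library. Markers of other cell types had lower sums. These were 42.1 to 44.7 CPM in the knockdown and 32.9 to 45.8 CPM in the controls for fibroblasts (3 of 5 with counts throughout). For blood cells they were 66.9 to 82.1 and 53.0 to 73.3 CPM, nearly all from PTPRC with CD14 and HBB at 0. For endothelium they were 16.8 to 31.2 and 19.0 to 26.5 CPM. PTPRC alone (51.8 to 82.1 CPM) lay above EPCAM (8.84 to 19.6 CPM) and PAX8 (12.1 to 26.2 CPM) in every library. Knockdown sample 1 stood apart: log2 CPM over all tested genes correlated with the other knockdown samples at Pearson r of 0.868 and 0.878, against 0.907 to 0.9502 for the other pairs within a group. Counts and medians over the members are therefore given with and without this library, as are members whose change took the other sign without it.

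None of the WNT pathway members passed the test between DNM3OS knockdown and control cells. After a filter on low counts, 27 of the 61 members could be tested, and 0 were called in either direction by edgeR's exact test at a Benjamini-Hochberg adjusted P below 0.05 with a change of at least 2-fold. Among all 11814 tested genes, 0.00846% were called lower and 0% higher under the same rule. Every tested member had an edgeR adjusted P of 1, and at an unadjusted P below 0.05 there were also 0 members, where 1.91% of all tested genes were lower and 1.01% higher. The quasi-likelihood test, DESeq2 and the fit with the replicate number as a block likewise gave 0 members at an unadjusted P below 0.05, where 2.93%, 1.62% and 1.35% of all tested genes did so. The study reports WNT signaling among the pathways deregulated by the knockdown. For WNT signaling it used gene set enrichment on genes ranked by fold change, a measure unlike the calls per gene given here. The study also called lowered genes with edgeR at this same threshold, and reports several EMT-linked pathways enriched among them. Its text does not list WNT signaling for that set. Here, 1 of the 11814 tested genes was called lower at this threshold, and the reason for the difference was not tested.

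Fold changes of the tested members lay within a narrow band. On the log2 scale, they ran from -0.52 for SFRP1 to 0.50 for FZD4 with a median of -0.13, beside a median of 0.00417 over all tested genes. Their standard errors, taken from the spread between replicates, had a median of 0.30 and reached 1.01 for AXIN1. The mean was lower in the knockdown for 16 of the 27 members (59.3%, and 49.4% of all tested genes) and higher for 11. This balance rested on knockdown sample 1, which was the lowest of the 6 samples for 13 of the 27 members, beside 29.8% of all tested genes. Without it, 29 members were tested, the median was 0.12 (0.066 over the 27 members tested before), and 11 had the lower mean (37.9%, and 50.8% of all tested genes). In bulk RNA, a change in the number of cells that express a gene and a change in RNA per cell cannot be told apart.

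**Figure D1:**
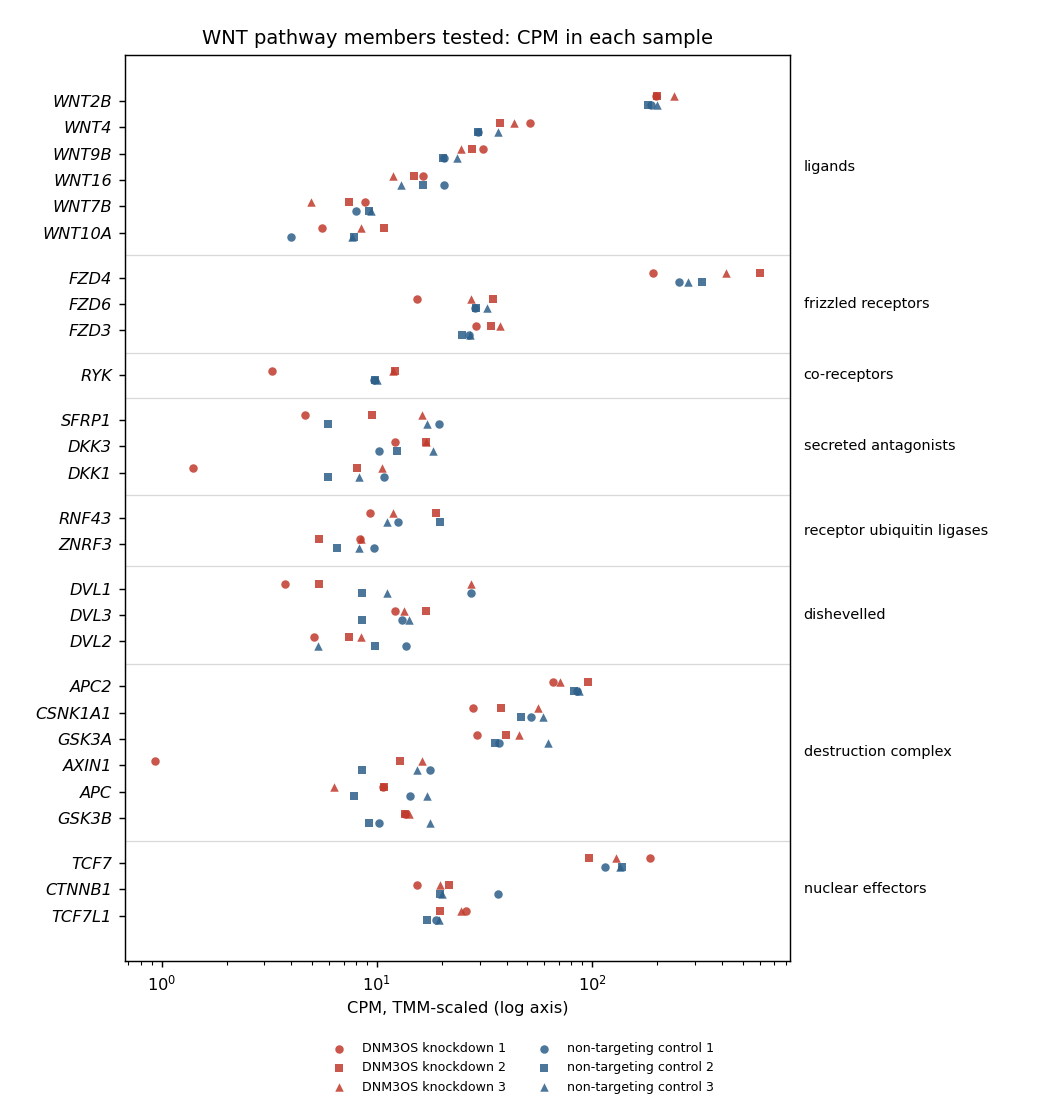
Level of each of the 27 tested members in each of the 6 samples, in CPM after TMM scaling on a log axis, grouped by role; red symbols are DNM3OS knockdown samples and blue symbols non-targeting controls, with circles, squares and triangles for replicates 1, 2 and 3. FZD4 and WNT2B lie highest at 182 to 604 CPM, and the red circle of knockdown sample 1 is often the leftmost symbol, as for AXIN1, DKK1 and RYK.

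Complete separation of the samples occurred in 1 direction only. For WNT4, WNT9B, FZD3 and TCF7L1, all 3 knockdown samples lay above all 3 controls in CPM, which makes 4 of the 27 members, where 4.42% of all tested genes separated upward. For 0 members did all 3 knockdown samples lie below the controls, where 3.56% of all tested genes separated downward. Without knockdown sample 1, the members that separated upward were these 4 with FZD4, RYK and WNT10A (7 in all, and 10.1% of all tested genes), and WNT7B separated downward (1 member, and 8.07% of all tested genes). An exact two-sided permutation test over the 20 assignments of 6 samples cannot give a P below 0.1, the value these 4 members reached.

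**Figure D2:**
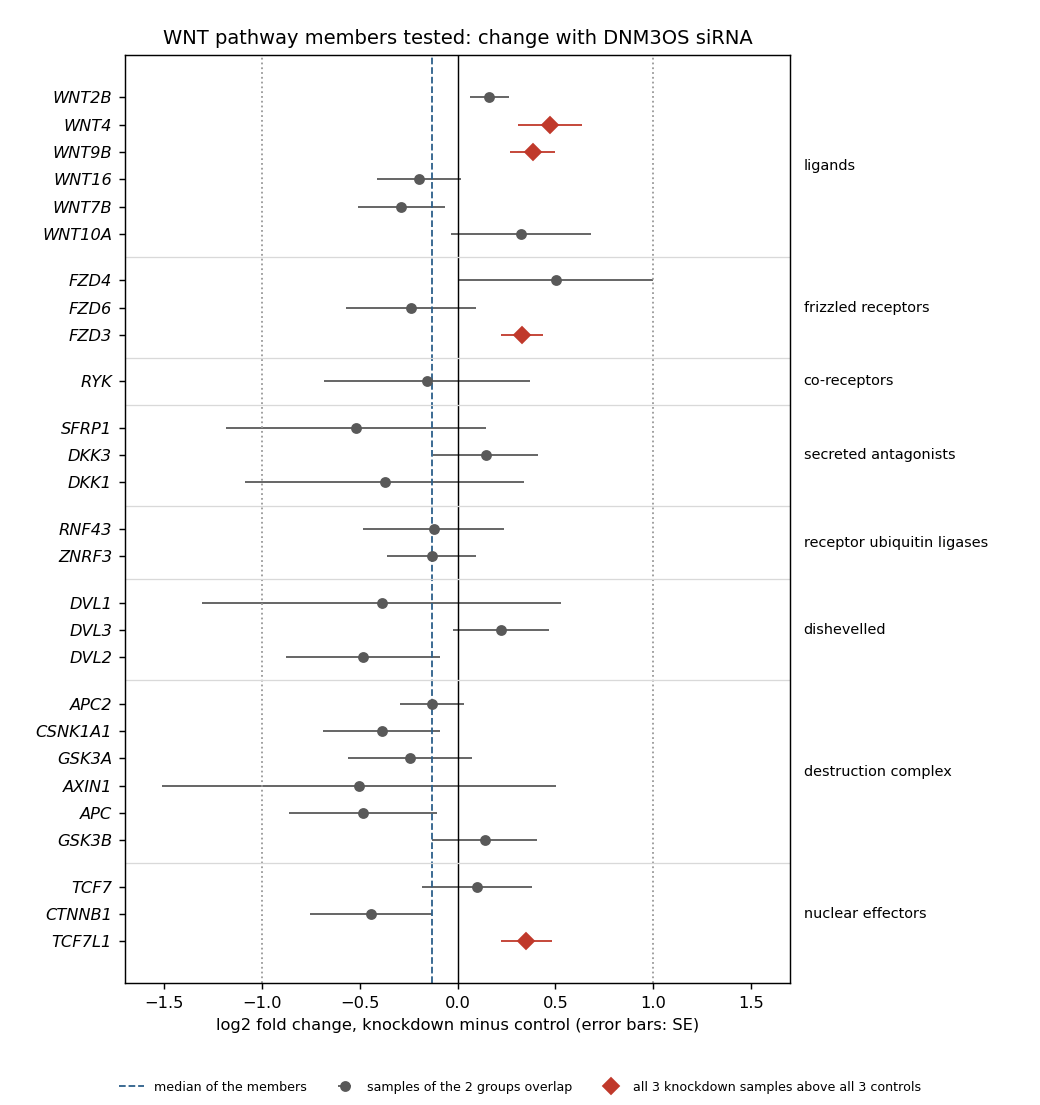
Log2 fold change of each tested member, knockdown minus control, with bars of 1 standard error, grouped by role; red diamonds mark members whose 3 knockdown samples all lie above the 3 controls, and the dotted lines mark a 2-fold change in either direction. All 27 values lie inside the dotted lines, and the dashed line at -0.13 is their median.

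Among the WNT ligands, 6 of 19 were tested, 4 with a higher and 2 with a lower mean in the knockdown, and the median log2 fold change was 0.24 (5 higher of 7 and 0.30 without knockdown sample 1). WNT4, a ligand with known roles in the development of the female reproductive tract, had 51.2, 37.1 and 43.5 CPM in the knockdown samples and 29.6, 29.5 and 36.5 CPM in the controls. The lowest knockdown sample was thus just above the highest control. The log2 fold change was 0.47 ± 0.16 (SE, n = 3 per group), with an unadjusted exact test P of 0.0626 and an adjusted P of 1, and the unadjusted value was the smallest of any member. The gene lies at chr1:22117313-22143969 on the minus strand (GRCh38), and 88.4% of its counts were on a coding transcript of which 55 exon bases are shared with an antisense lncRNA.

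WNT9B, a ligand known from kidney tubule formation, was measured at 31.2, 27.7 and 24.6 CPM in the knockdown and 20.5, 20.3 and 23.5 CPM in the controls. Here too the groups did not overlap, with knockdown sample 3 and control sample 3 closest to each other. The change was 0.38 ± 0.12 on the log2 scale, with an edgeR adjusted P of 1. All of its counts were on a coding transcript without exon overlap on the opposite strand, at chr17:46833201-46886730.

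WNT2B, a ligand of the canonical branch, was the most counted ligand, with 198, 199.9 and 241 CPM in the knockdown and 187, 182 and 201 CPM in the controls. Its groups overlapped, since control sample 3 lay above knockdown samples 1 and 2, and the log2 fold change was 0.16 ± 0.10. The remaining tested ligands overlapped between groups as well, with log2 fold changes of 0.32 ± 0.36 for WNT10A, -0.20 ± 0.22 for WNT16 and -0.29 ± 0.22 for WNT7B. The other 13 ligands were too low to test. WNT1, WNT2 and WNT11 were at 0 in all 6 libraries, which allows up to 3 counts or 1.40 to 2.10 CPM in each, and WNT5A, WNT5B and WNT8A had 1 count in the whole series. WNT5A is the ligand best known for the branch that acts without beta-catenin. WNT6 and WNT7A, with 49 counts each over the 6 libraries, were the highest of the untested ligands. The secretion factors PORCN, which attaches the lipid to WNT proteins, and WLS, which carries them to the cell surface, had 5 and 32 counts in total.

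Of the frizzled receptors, 3 of 10 were tested, 2 with a higher mean, and without knockdown sample 1 all 4 that could then be tested had a higher mean. FZD3, a receptor known for axon guidance and planar cell polarity, had 28.8, 33.8 and 37.2 CPM in the knockdown and 26.8, 24.9 and 27.1 CPM in the controls. Its knockdown samples were all above its controls, and the log2 fold change of 0.33 ± 0.11 had an edgeR adjusted P of 1. The same order held in TPM (transcript abundance per length), where the knockdown samples had 3.29, 4.24 and 3.67 and the controls 2.80, 2.58 and 2.77. In TPM, WNT4, WNT9B and TCF7L1 overlapped between the groups, each with the lowest knockdown sample below the highest control (20.3 against 26.4 TPM for WNT4, 13.25 against 13.31 TPM for WNT9B and 55.4 against 63.9 TPM for TCF7L1).

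FZD4, the receptor for norrin as well as for WNT ligands, was the most counted of all members, and its knockdown samples spread widely. Its level was 192, 604 and 417 CPM in the knockdown and 253, 324 and 279 CPM in the controls. Knockdown sample 1 was the lowest of all 6 samples, while knockdown samples 2 and 3 were above every control. The log2 fold change was 0.50 ± 0.50 with an edgeR adjusted P of 1, and without knockdown sample 1 it was 0.85 with an adjusted P of 0.139. Without knockdown sample 2, the highest, it was 0.086 with an edgeR adjusted P of 1. FZD6, which can act against canonical signalling, had 15.3, 34.4 and 27.4 CPM in the knockdown and 28.5, 28.8 and 32.3 CPM in the controls, which is -0.24 ± 0.33 on the log2 scale. Its groups overlapped, with knockdown sample 1 again the lowest, and the log2 value was 0.062 without that sample. The 7 untested frizzled genes had between 3 counts (FZD9) and 47 counts (FZD5) in total.

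FZD4 shows how closely a member can be tied to a gene on the other strand. It lies at chr11:86945679-86955395 on the minus strand, and 1399 of its exon bases are also exon bases of PRSS23, a serine protease gene on the plus strand. Of the 1611 coding bases of FZD4, 1255 (77.9%) are in this overlap, and 67 bases at chr11:86951216-86951282 are annotated as coding in both genes. This stretch is printed below from GRCh38, 147 bases at chr11:86951176-86951322 read 5′ to 3′ on each strand, with the 67 bases that code on both strands in capitals.
PRSS23, plus strand: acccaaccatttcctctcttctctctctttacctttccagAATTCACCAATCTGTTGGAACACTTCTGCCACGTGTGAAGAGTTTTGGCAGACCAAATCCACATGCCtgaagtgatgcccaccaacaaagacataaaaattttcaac
FZD4, minus strand: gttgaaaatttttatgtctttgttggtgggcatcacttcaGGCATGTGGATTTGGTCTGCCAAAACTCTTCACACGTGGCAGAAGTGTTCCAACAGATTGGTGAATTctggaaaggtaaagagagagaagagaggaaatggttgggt
Each line is the reverse complement of the other. An unspliced fragment lying wholly within exon bases of both genes can therefore be assigned to a gene only by its strand. All FZD4 counts were on 1 coding transcript of 7383 bases. FZD4 held 413, 894 and 594 gene counts in the knockdown and 444, 495 and 474 in the controls, and PRSS23 held 626, 358 and 385 in the knockdown and 344, 381 and 403 in the controls. Knockdown sample 1 thus had the lowest FZD4 count and the highest PRSS23 count of the 6. The part of the overlap in the FZD4 level was not tested.

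**Figure D3:**
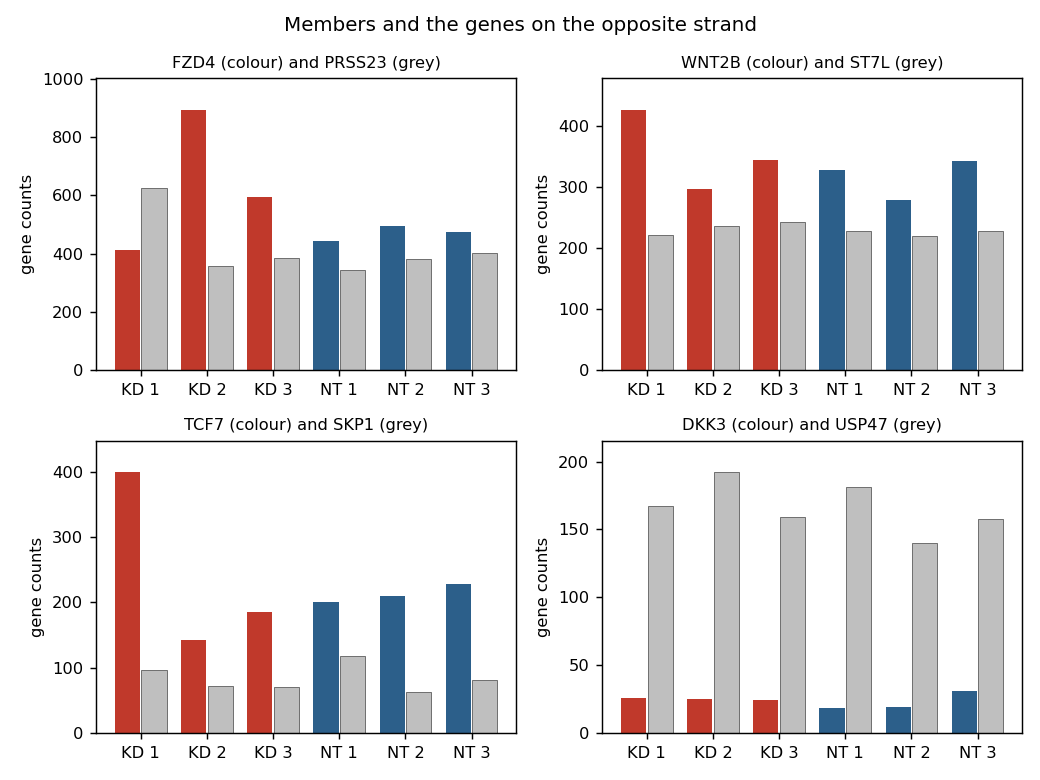
Rounded gene counts, not scaled for library size, of 4 members (red in the knockdown samples KD 1 to 3, blue in the controls NT 1 to 3) and of the protein-coding gene that shares exon bases with each on the opposite strand (grey). FZD4 exceeds PRSS23 in every library except knockdown sample 1, where it has 413 counts against 626, and DKK3 has 18 to 31 counts beside 140 to 192 for USP47.

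The members' share of counts on transcripts overlapped in this way was close to that of all protein-coding genes. An exon on the opposite strand was annotated for 18 members, 8 of them opposite a protein-coding gene, and a quantified transcript was overlapped in 15 (24.6%, and 35.2% of protein-coding genes). Transcripts with such an overlap held 57.5% of the members' counts and 59.1% of those of all protein-coding genes. FZD4 and WNT2B alone held 43.5% of the 12249 counts of the 61 members over the 6 libraries, and 61.2% with TCF7 and APC2. All counts of FZD4 and APC2 were on overlapped transcripts, but only 1.73% of those of TCF7 were. WNT2B shares 2665 exon bases with ST7L on the minus strand, and its counts were almost all (99.9%) on the overlapped transcript of 10879 bases. In contrast, DKK3 shares 5681 exon bases with USP47, yet none of its counts were on an overlapped transcript. When only transcripts without such an overlap were counted, 19 members were tested. Of the 20 members named by the rule for this report, FZD4, WNT2B, WNT4, FZD6, RNF43, DVL1 and DKK1 could not be tested. The other 13 kept the sign of their change. APC2, which is not among those 20, could not be tested either.

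Among the co-receptors, RYK alone was tested. RYK, a WNT-binding receptor with an inactive kinase domain, had 3.26, 12.2 and 11.9 CPM in the knockdown and 9.68, 9.82 and 10 CPM in the controls. Knockdown sample 1 was far below the others, the groups overlapped, and the log2 fold change of -0.16 ± 0.52 became 0.30 without that sample. LRP5 and LRP6, the co-receptors that pass the signal to AXIN, had 23 and 22 counts in total, ROR1 had 31 and ROR2 had 3.

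The secreted antagonists were low and variable, with 2 of 3 tested lower in mean, or 1 of 3 without knockdown sample 1. DKK1, which blocks LRP5 and LRP6 and is itself a known beta-catenin target, had 1.40, 8.10 and 10.5 CPM in the knockdown and 10.8, 5.89 and 8.24 CPM in the controls. The value in knockdown sample 1 rests on 3 counts, and the log2 fold change was -0.37 ± 0.71 with all samples and 0.16 without this one. DKK3, a more distant member of the family that does not bind LRP6, had 12.1, 16.9 and 16.8 CPM in the knockdown and 10.2, 12.4 and 18.2 CPM in the controls, with a log2 fold change of 0.14 ± 0.27. SFRP1, which binds WNT ligands directly, ranged from 4.65 to 16.1 CPM in the knockdown and from 5.89 to 19.4 CPM in the controls, and its change of -0.52 ± 0.66 was the lowest of any tested member but overlapped between groups. DKK2 was at 0 in all 6 libraries, and DKK4, SFRP2, SFRP4 and SFRP5 had 1 to 36 counts in total.

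TCF and LEF factors bind DNA through a short core motif, searched here in front of the members. The letters CTTTGA, on either strand, were present in the 250 bases upstream of 2 of 58 member promoters (3.45%), which covered 46 of the 61 genes in RefSeq (GRCh38.p14), and in 3937 of 35116 promoters in all (11.2%). Those promoters belong to DKK1 and PORCN. The DKK1 promoter is shown because DKK1 is the tested member that holds the motif, from chr10:52314031-52314280 on the plus strand of GRCh38.p14, ending just before the gene start, with both matches in capitals.
DKK1 promoter: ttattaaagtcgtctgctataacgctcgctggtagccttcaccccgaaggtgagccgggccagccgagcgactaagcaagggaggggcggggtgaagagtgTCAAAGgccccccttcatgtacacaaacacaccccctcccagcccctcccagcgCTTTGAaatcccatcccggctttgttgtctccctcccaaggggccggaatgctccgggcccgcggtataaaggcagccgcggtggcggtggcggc
The farther match starts 149 bases before the gene start. A match of letters is not a binding site, and DKK1 levels overlapped between the groups.

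RNF43 and ZNRF3 are membrane ubiquitin ligases that remove frizzled receptors from the cell surface. RNF43 had 9.30, 18.9 and 11.9 CPM in the knockdown and 12.5, 19.6 and 11.2 CPM in the controls, with a log2 fold change of -0.12 ± 0.36 that was 0.12 without knockdown sample 1. ZNRF3 had 8.37, 5.40 and 8.42 CPM in the knockdown and 9.68, 6.55 and 8.24 CPM in the controls, with a log2 fold change of -0.13 ± 0.23. Both overlapped between the groups, and each changed sign in 2 of the 6 fits with a sample left out.

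The dishevelled genes, whose products relay the signal from frizzled receptors, were all tested, with 2 lower and 1 higher mean, or 1 lower and 2 higher without knockdown sample 1. DVL1 varied most, at 3.72, 5.40 and 27.4 CPM in the knockdown and 27.3, 8.51 and 11.2 CPM in the controls, so that 1 sample in each group was far above the rest. Its log2 fold change of -0.39 ± 0.92 was smaller than its standard error, and it was 0.064 without knockdown sample 1. DVL2 had 5.12, 7.43 and 8.42 CPM in the knockdown and 13.7, 9.82 and 5.29 CPM in the controls, with a log2 fold change of -0.48 ± 0.39 and overlapping groups. It was -0.13 without control sample 1 and -0.79 without control sample 3. DVL3 differed by 0.22 ± 0.24 on the log2 scale.

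The destruction complex had the most members with a lower mean, 5 of the 6 tested, with a median log2 fold change of -0.32, and 4 of 6 with a median of -0.037 without knockdown sample 1. CSNK1A1, the kinase that places the priming phosphate on beta-catenin, had 27.9, 37.8 and 56.1 CPM in the knockdown and 51.8, 46.5 and 59.4 CPM in the controls. Knockdown samples 1 and 2 were below every control and knockdown sample 3 was not, and the log2 fold change was -0.39 ± 0.30, or -0.16 without knockdown sample 1. APC, the scaffold whose loss activates the pathway in colon cancer, had 10.7, 10.8 and 6.32 CPM in the knockdown and 14.2, 7.86 and 17.1 CPM in the controls, a difference of -0.48 ± 0.38 on the log2 scale. Its groups overlapped through control sample 2, and the difference lay between -0.72 and -0.26 when 1 sample was left out.

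The GSK3 kinases, which phosphorylate beta-catenin, had changes of opposite sign. GSK3A had 29.3, 39.9 and 45.6 CPM in the knockdown and 37.0, 35.4 and 62.3 CPM in the controls, with a log2 fold change of -0.24 ± 0.31. GSK3B had 13.5, 13.5 and 14.0 CPM in the knockdown and 10.2, 9.17 and 17.6 CPM in the controls, with a log2 fold change of 0.14 ± 0.27. Both genes overlapped between the groups, and the difference between the genes was not tested. AXIN1, the limiting scaffold, ranged from 0.930 CPM (2 counts) in knockdown sample 1 to 16.1 CPM in knockdown sample 3 and from 8.51 to 17.7 CPM in the controls. The AXIN1 change was -0.50 ± 1.01 on the log2 scale with all samples and 0.066 without knockdown sample 1. AXIN2, the widely used readout of beta-catenin activity, was at 0 in all 6 libraries, so a level above the limit of 3 counts per library was not detected in either group. Whether this limit holds for AXIN2 sense RNA was not tested. APC2, a neuronal relative of APC, was the most counted gene of the complex, at 66.0 to 95.9 CPM in the knockdown and 82.5 to 86.5 CPM in the controls.

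Counts of APC2 were mostly not on its coding transcript. A retained-intron transcript of 2897 bases, 402 of them shared with exons on the opposite strand, took 54.1%, 64.7% and 54.5% of the APC2 counts in the knockdown and 73.8%, 71.2% and 66.0% in the controls. The shares did not overlap between the groups, a difference noticed after the values were seen and not tested. It was not particular to APC2. A DKK3 transcript without a defined coding sequence took 50.8%, 76.0% and 41.1% of DKK3 counts in the knockdown and 0% to 24.7% in the controls, on at most 19.0 counts. How often transcript shares separate over all genes was not determined. Transcripts that do not code for protein took 20.5% of the members' counts, and 33.8% of the counts of all protein-coding genes. The share was 97.5% for TCF7, 57.4% for DVL2 and 46.4% for APC, and it was 0% for FZD4, FZD3 and WNT9B.

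CTNNB1, the gene for beta-catenin, was measured at 15.3, 21.6 and 19.7 CPM in the knockdown and 36.5, 19.6 and 20 CPM in the controls. Control sample 1 was high, and the other 5 samples lay within 15.3 to 21.6 CPM. The log2 fold change was -0.44 ± 0.31 (SE, n = 3 per group) with an edgeR adjusted P of 1, and it was -0.091 without control sample 1. On counts rebuilt from TPM, it was 0.069. The gene lies at chr3:41194741-41260096 on the plus strand, and 7.28% of its counts were on transcripts that do not code for protein.

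TCF7, a TCF factor best known from T cells, had the highest level per length of all members. Its counts corresponded to 186, 96.6 and 129.8 CPM in the knockdown and 115, 138 and 134 CPM in the controls. Knockdown sample 1 was the highest and knockdown sample 2 the lowest, and the log2 fold change was 0.10 ± 0.28, or -0.18 without knockdown sample 1. Most of its counts were on retained-intron transcripts, with 51.1% on 1 of 5340 bases. TCF7L1, which mainly represses targets, had 26.0, 19.6 and 24.6 CPM in the knockdown and 18.8, 17.0 and 19.4 CPM in the controls. Its groups did not overlap, but knockdown sample 2 and control sample 3 nearly met, and the change of 0.35 ± 0.13 on the log2 scale had an edgeR adjusted P of 1. TCF7L2 had 36 counts and LEF1 1 count in total, so neither was tested.

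Per length, TCF7 was the highest member in control cells. It had 102 ± 15.5 TPM (SD, n = 3), and all 3 controls lay above those of every other member. GSK3A (58.5 ± 14.2 TPM), TCF7L1 (57.2 ± 7.06 TPM), CSNK1A1 (57.0 ± 6.95 TPM) and FZD4 (55.5 ± 6.34 TPM) followed and did not differ beyond their spread. APC2 (34.1 ± 1.63 TPM) lay below these 4 in every control, with WNT2B (24.9 ± 1.35 TPM) below it, and WNT4 (21.1 ± 5.40 TPM) overlapped with WNT2B. CTNNB1 came 14th, at 13.7 ± 7.02 TPM. At least 1 TPM was reached in all 3 controls by 35 members and at least 10 TPM by 12. These TPM include short and non-coding transcripts, so their order is not one of coding mRNA alone. Transcripts that do not code held 97.5% of TCF7 counts, and a retained-intron transcript of 761 bases held 43.7% of GSK3A counts. For TCF7L1, 60.0% of counts were on a coding transcript of 559 bases. TCF7L1 had 26 to 33 counts per control library, against 444 to 495 for FZD4.

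Further genes of the pathway, in 5 lists chosen by function with earlier results of these data known, gave 0 calls in each list. Of all tested genes, 49.4% had the lower mean in the knockdown, and 50.8% without knockdown sample 1. With all samples, 3.56% of all tested genes separated downward and 4.42% upward. Of the regulators of secreted ligands and receptors, 8 were tested, 5 with a lower and 3 with a higher mean (median log2 fold change -0.10, and 0.14 without knockdown sample 1). RECK, a membrane cofactor for WNT7 ligands, differed most downward at -0.83 ± 0.27 and its groups did not overlap, and KREMEN1, a receptor for DKK proteins, most upward at 0.26 ± 0.14. Intracellular and nuclear regulators had 28 lower and 5 higher means of 33 (median -0.25), and without knockdown sample 1 there were 23 lower of 35 (median -0.089). TBL1XR1, a subunit of the NCoR corepressor complex that also binds beta-catenin, had the largest decrease in that list, with 16.7, 22.3 and 25.3 CPM in the knockdown and 44.4, 33.4 and 38.2 CPM in the controls. Its knockdown samples all lay below its controls, the log2 fold change was -0.87 ± 0.20, and the edgeR P was 0.00178 before and 1 after adjustment. Its relative TBL1X was the most upward of that list at 0.52 ± 0.41. Polarity and calcium branch genes had 14 lower and 12 higher means of 26 (median -0.033), and 13 lower of 26 without knockdown sample 1 (median 0.0052). PLCB3, a phospholipase that releases calcium signals, was at -0.97 ± 0.39 with overlapping groups and an unadjusted edgeR exact test P of 0.0193. DAAM1, a formin that binds dishevelled, was at 0.40 ± 0.16 with all knockdown samples above the controls. Cadherin-catenin partners had 3 lower and 4 higher means of 7 (median 0.019, and 0.034 without knockdown sample 1), between -0.54 ± 0.38 for CTNNA1 and 0.47 ± 0.46 for CTNNA2, which are alpha-catenins. Each of these genes had an edgeR adjusted P of 1. In the order given, 2 of 8, 5 of 33, 2 of 26 and 0 of 7 genes had all knockdown samples below the controls. Only 1 gene, in the polarity and calcium branch, had them all above. In the same order, 0, 2, 1 and 0 genes had an unadjusted edgeR exact test P below 0.05, beside 2.92% of all tested genes. The lists were not tested as sets.

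Known beta-catenin target genes had 8 lower and 3 higher means of 11 tested (median log2 fold change -0.41), and without knockdown sample 1 the median was -0.058 with 8 lower of 12. With all samples, 1 of the 11 separated downward and 0 upward. The only 1 with an unadjusted edgeR exact test P below 0.05 was CD44, at 0.0402, beside 2.92% of all tested genes. CD44, a hyaluronan receptor, had 6.51, 14.2 and 12.6 CPM in the knockdown and 25.6, 9.17 and 31.8 CPM in the controls, with overlapping groups, a log2 fold change of -1.02 ± 0.60 and an edgeR adjusted P of 1. TNFRSF19, a receptor of the TNF family, was the most upward at 0.39 ± 0.38. CCND1, a cyclin of the G1 phase, had 43.7, 52.7 and 85.6 CPM in the knockdown and 83.7, 39.9 and 88.8 CPM in the controls, a difference of -0.23 ± 0.46 on the log2 scale.

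**Figure D4:**
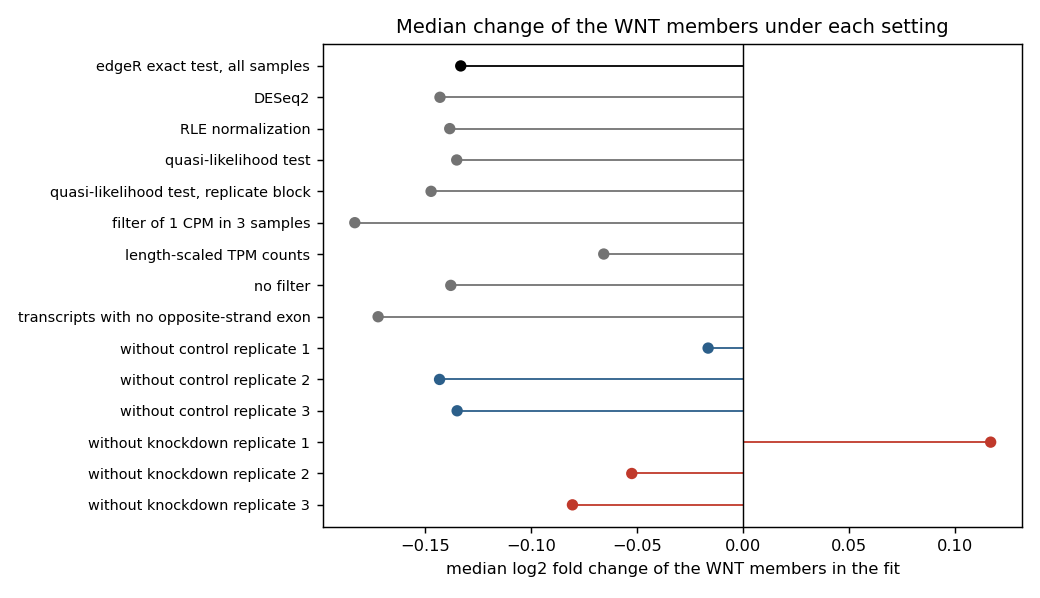
Median log2 fold change of the WNT pathway members in the fit, knockdown minus control, under the edgeR exact test with all samples (black), other tests, filters or counts (grey), and with 1 knockdown (red) or control sample (blue) left out. The median is negative in each setting except the one without knockdown sample 1, where it is 0.12.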

How the data were processed

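RNA of SKOV3 cells, 3 samples with DNM3OS siRNA and 3 with non-targeting siRNA, was sequenced by the authors from ribosomal RNA-depleted, stranded libraries. The authors quantified transcripts of GRCh38 with kallisto 0.43.0, per the labels, and the deposited values per transcript are an estimated count (an expected count, not normalized), a TPM (abundance per length) and an effective length. The use of a strand option is not given in the sources used here. The labels do not say that replicates came from separate cultures, so P-values measure only the spread between these samples.

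Estimated counts and TPM were summed over the transcripts of each GENCODE release 44 gene, which covered 93.6% to 95.2% of a sample's counts, and counts were rounded. Genes were filtered with filterByExpr (minimum count 10), normalized by TMM, and compared by the exact test of edgeR 4.0.16 (R 4.3.3) with Benjamini-Hochberg adjustment over all genes tested. The exact test on gene-level counts follows the study's methods, and the filter and TMM were chosen here. CPM use TMM-scaled library sizes, and standard errors come from log2 CPM (prior count 2). The code was tested on simulated data with planted changes larger than any seen in the members, in well-counted genes. That test does not show how small a change could be detected in the members. Replicate numbers were not used to pair the samples in the main test. Deviations of same-numbered samples correlated at -0.40, -0.34 and 0.23, and those of differently numbered samples at -0.41 to 0.53. With 3 samples per group, these values cannot decide whether the samples were paired. No libraries were duplicates, since the chi-square per degree of freedom between replicates was at least 2.14.

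The members and lists were chosen with earlier results of these data known. Values in every sample were given for members past the threshold, members whose groups do not overlap, members with a log2 fold change of at least 1 in size, the 2 members with the highest control TPM in each role where tested, and CTNNB1, AXIN2, APC and GSK3B. Of each further list, any gene past the threshold, or otherwise the largest decrease and increase, was eligible; CCND1 was named after its values were seen. Alternatives were the quasi-likelihood test with and without a replicate block, DESeq2 1.42.0, RLE normalization, other filters, length-scaled TPM counts, transcripts without opposite-strand exons, and each sample left out. Counts of non-overlapping members, role groups and further lists without knockdown sample 1 were added after seeing the data.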

Additional observations from a re-analysis of the deposited data

How the results depend on the processing

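No WNT member passed the threshold in any of the 14 alternatives, so the counts of 0 down and 0 up did not move. Of 273 changes of 20 named members under these settings, 259 kept their direction, 14 reversed and 0 crossed the threshold, and APC, CSNK1A1, DVL2, FZD3, FZD4, TCF7L1, WNT2B, WNT4 and WNT9B kept theirs wherever they could be fitted. The smallest adjusted P was 0.139, for FZD4 without knockdown replicate 1. The median log2 fold change of the members ran from -0.18 to -0.066 under other tests, filters and counts, and from -0.14 to 0.12 when 1 sample was left out. Members with a lower mean numbered 32 without a filter and 28 when genes needed 1 CPM in 3 samples, where more members enter the fit, and 11 to 17 when 1 sample was left out. Over all genes, calls down were 0 with the quasi-likelihood test, DESeq2 and transcripts without opposite-strand exons, 2 without a filter or with 1 CPM in 3 samples, 4 with length-scaled TPM counts (and 2 up), and 0 to 3 down and 0 to 1 up with 1 sample left out. With the replicate block, calls over all genes were 0 down, and the member median was -0.15 with 16 lower. The block changed no call of a member, and whether the numbers pair the samples could not be decided.

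Named changes reversed for CTNNB1 with length-scaled TPM counts (0.069) and for 10 members when 1 sample was left out, where log2 fold changes ran from -0.89 to 0.16 for DKK1, -1.80 to 0.27 for DVL1, -0.52 to 0.062 for FZD6, -0.45 to 0.16 for RNF43, -0.44 to 0.30 for RYK, -0.18 to 0.30 for TCF7, -0.25 to 0.035 for ZNRF3, -0.034 to 0.40 for DKK3, -0.39 to 0.055 for GSK3A and -0.018 to 0.48 for GSK3B. Of these 13 reversals, 6 (DKK1, DVL1, FZD6, RNF43, RYK and TCF7) came without knockdown replicate 1. The cause was not tested. The members were thinly counted: the median mean count of those tested was 23.8, against 36.2 for all tested genes.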

Other observations

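Transcript shares within a member were often unstable between replicates. FZD3 counts divided between a pair of coding transcripts of 13736 and 13740 bases, with 58.3%, 57.8% and 58.3% on the shorter one in the knockdown, 58.3% and 58.4% in control samples 2 and 3, and 100% in control sample 1. RYK counts lay mostly on a coding transcript of 2934 bases in 5 samples (81.4% to 96.4%), while control sample 3 had 85.8% on another of 2942 bases. Both pairs are nearly equal in length, and the gene totals used in the comparison do not depend on this division.

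The 34 members below the filter held 93, 85 and 95 counts in sum in the knockdown and 115, 81 and 115 in the controls, so the groups overlapped. Of all gene counts, the 61 members took 0.118%, 0.135% and 0.127% in the knockdown and 0.111%, 0.115% and 0.119% in the controls.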
